A study of Jatropha curcas with 10 samples.

Results

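The comparison described here sets Jatropha curcas inflorescence meristems 12 h after treatment with GA3 against those at 0 h. Jatropha curcas is a shrub grown for the oil of its seeds. GA3 is gibberellic acid, and the plants were 3 years old. The series holds 10 RNA sequencing libraries in 5 groups (0, 6, 12, 24 and 48 h after GA3), with 2 libraries a group, and this comparison rests on the 4 libraries of 0 h and 12 h. All groups received GA3, and the labels give neither its dose nor untreated plants at the later times, so that the hormone, the time elapsed and the hour of the day cannot be told apart. The labels do not state whether the libraries of 1 group came from different plants. The p-values therefore reflect the spread between libraries alone, and that spread may be technical. Genes were taken up when their mean over the 4 libraries was at least 1 RPKM (reads normalised for gene length and library depth). This kept 17518 of 28447 gene IDs, of which 941 were IDs other than JCGZ locus tags. Of the rest, 6924 were at 0 in the 4 libraries and 4005 lay above 0 and under 1. The gene just inside the limit had a mean of 1.00013 RPKM (0.945 and 0.590 at 0 h, 1.03 and 1.43 at 12 h). The gene just outside had a mean of 0.999842 RPKM (2.45 and 0.916 at 0 h, 0.638 and 0 at 12 h).

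Gibberellins are plant hormones that promote stem elongation, seed germination and, in many species, the passage to flowering. They act through a soluble receptor that, once bound to the hormone, targets the DELLA proteins, repressors of growth, for destruction, and transcription of many genes follows. The inflorescence meristem is the growing tip from which flowers are formed, and in Jatropha gibberellin is known to affect flower number and sex. The deposited tables do not pair their IDs with names, and a RefSeq table of 28617 genes shared 0 of the 28447 IDs. Genes are therefore described by their level, coding length and course, with 2 IDs in each direction, and the tissue label was not checked against marker genes.

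The libraries of 0 h held 17924974 and 19157081 reads, and those of 12 h 20634498 and 19093108, recovered from the deposited values. For a gene of 1 kb, 3 reads equal 0.145 to 0.167 RPKM in these libraries, a limit that covers counting error only. No value above 0 was identical in both libraries of a time, and the read counts of such pairs differed beyond counting noise, with a chi-square of 52.3 (0 h) and 146 (12 h) for each degree of freedom. Libraries of the same time stood apart from each other by gene length. In the longest of 5 length classes (1837 to 16764 bases), library 1 of 12 h lay at a median of -0.27 (log2) from the 0 h mean and library 2 at 0.52. In the shortest class (132 to 615 bases) the medians were 0.19 and -0.17. Between the 0 h libraries, library 1 lay at a median of 0.38 (log2) from library 2 in the longest class and at -0.15 in the shortest.

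Of the 17518 genes tested, 225 (1.28%) were called lower at 12 h and 42 (0.240%) higher, 1.52% in all (limma, Benjamini-Hochberg adjusted p under 0.05). The falling genes changed by a median of -2.55 and the rising genes by 2.13 (log2), while the median of all genes tested was 0.07. All 225 falling genes were at least 2-fold lower in mean RPKM, 108 at least 8-fold and 19 at least 64-fold, with a median of 7.42-fold. Some of the 19 had only a few reads at 12 h, among them a gene with 1 and 3, so the size of their folds is uncertain. Of the 42 rising genes, 18 were at least 8-fold higher and 1 at least 64-fold, with a median of 6.66-fold; 1 gene without reads at 0 h was set to a floor of 3 reads per library. In bulk tissue, fewer cells of a type and less RNA per cell cannot be told apart.

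**Figure D1:**
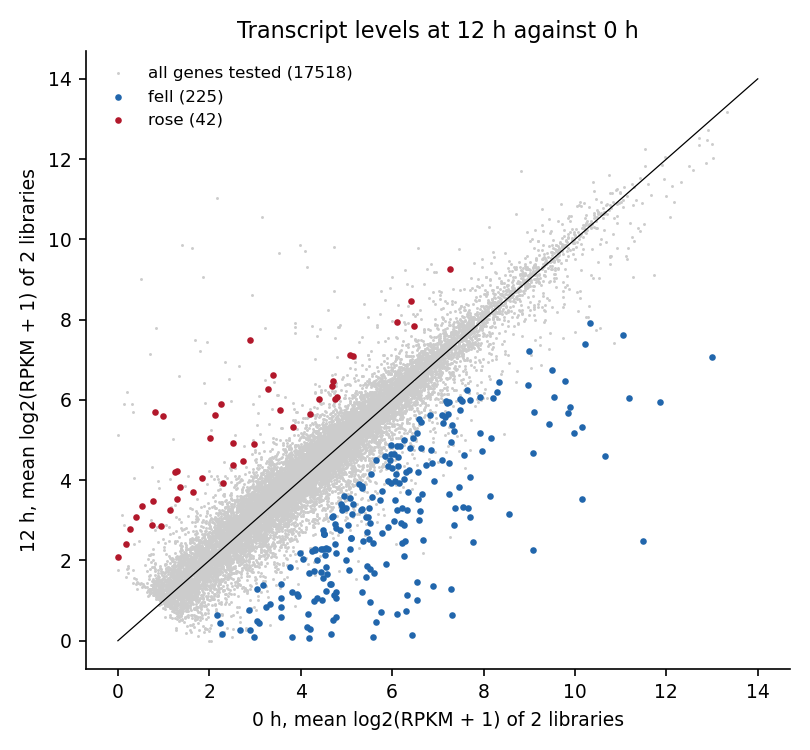
Mean log2(RPKM + 1) of the 2 libraries at 0 h (horizontal axis) and at 12 h (vertical axis) for each of the 17518 genes tested; the line marks equal levels, blue points are the 225 genes that fell and red points the 42 that rose. Falling genes spread over most of the range of 0 h levels, and the rising genes lie mostly at low 0 h levels; grey points far above the line are genes with a large rise that did not pass the test.

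The downward balance held for large and tested changes, not for all genes. Both libraries of 12 h lay below both of 0 h in 2970 genes (17.0%) and above both in 4025 (23.0%). With a gap of at least 4-fold between the groups, 194 genes (1.11%) were lower and 91 (0.519%) higher at 12 h. All 225 falling and all 42 rising genes had groups that did not overlap. The total of 267 called genes rested on all 4 libraries of the comparison. It dropped to 35 when library 1 of 0 h was left out, to 53 without its library 2, to 95 without library 1 of 12 h and to 93 without its library 2. In a fit to those 4 libraries alone, 181 genes fell and 80 rose, so that falls made up 69.3% of the calls against 84.3%. Only 152 of the 225 falling and 23 of the 42 rising genes were called again in that fit. The other calls thus relied on the spread taken from all 10 libraries.

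By the limma test, the share of genes that fell was larger in more abundant classes. Classes were set by the mean RPKM over the 4 libraries. From low to high they held 11, 65, 102, 35 and 12 falling genes, so the share at 500 RPKM and over rests on few. Steps between neighbouring classes were not tested. Of 3113 genes at 1 to 5 RPKM, 0.353% fell; of 5741 at 5 to 20, 1.13%; of 6479 at 20 to 100, 1.57%; of 1729 at 100 to 500, 2.02%; and of 456 at 500 and over, 2.63%. The share that rose was 0.225% to 0.289% in the first 4 classes, and 0 of 456 genes in the highest class. The low class is also the one where log2(RPKM + 1) understates changes. Counted by a 4-fold gap instead, the lower genes made up 1.51%, 0.888%, 0.972%, 1.21% and 2.63% of the 5 classes from low to high, so the lowest class exceeded the next 3 and there was no steady climb. The higher genes made up 0.578%, 0.279%, 0.386%, 1.68% and 0.658%, more than the lower ones at 100 to 500 RPKM.

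**Figure D2:**
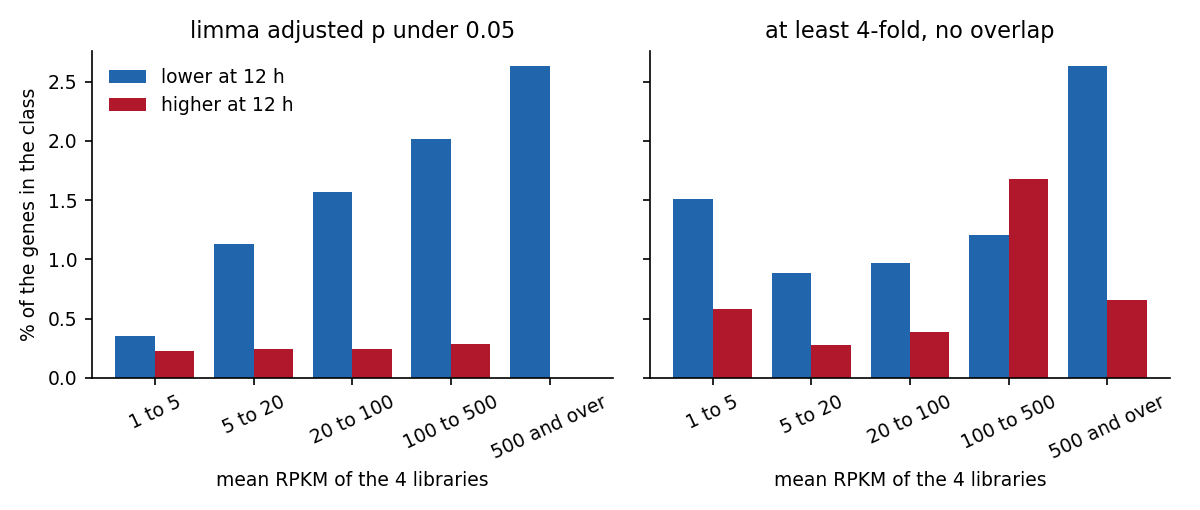
Share of the genes in each of 5 abundance classes (mean RPKM of the 4 libraries) that were lower (blue) or higher (red) at 12 h, by the limma test (left) and by a gap of at least 4-fold between groups that do not overlap (right). By the test the falling share climbs from 0.353% (11 genes) to 2.63% (12 genes). By the 4-fold gap it does not climb steadily, and the class of 100 to 500 RPKM has more higher than lower genes.

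The typical gene of a class changed little. The median change lay between -0.0013 and 0.099 (log2) in all 5 classes. The highest class took 27.5% and 32.0% of all reads in the 0 h libraries, against 29.9% and 21.3% in the 12 h libraries, so its libraries overlapped between the times. With classes set by the 0 h level, 4.92% of the 447 genes at 500 RPKM and over fell and 0.0984% of those at 1 to 5 RPKM. Such classes hold genes placed there by the same 0 h values. Set by the 6 libraries of 6, 24 and 48 h, which do not enter the 12 h change, the shares were 2.98% and 0.485%. These 6 libraries still set part of the spread by which genes were called, so such classes are not independent of the calls.

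Most of the transcript lost by the falling genes came from a few abundant ones. Together the 225 genes held 4.46% and 4.41% of all reads in the 0 h libraries, but 0.466% and 0.426% in the 12 h libraries. The 22 of them that started at 500 RPKM or more dropped from 2.65% and 2.81% to 0.163% and 0.119%. The 121 genes at 20 to 100 RPKM, the most numerous group, went from 0.756% and 0.658% to 0.140% and 0.146%. The 47 genes at 100 to 500 RPKM went from 0.996% and 0.898% to 0.157% and 0.155%, and the 35 under 20 RPKM from 0.0528% and 0.0451% to 0.00562% and 0.00636%. The 10 genes with the largest losses accounted for 50.6% of the reads lost by the 225.

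**Figure D3:**
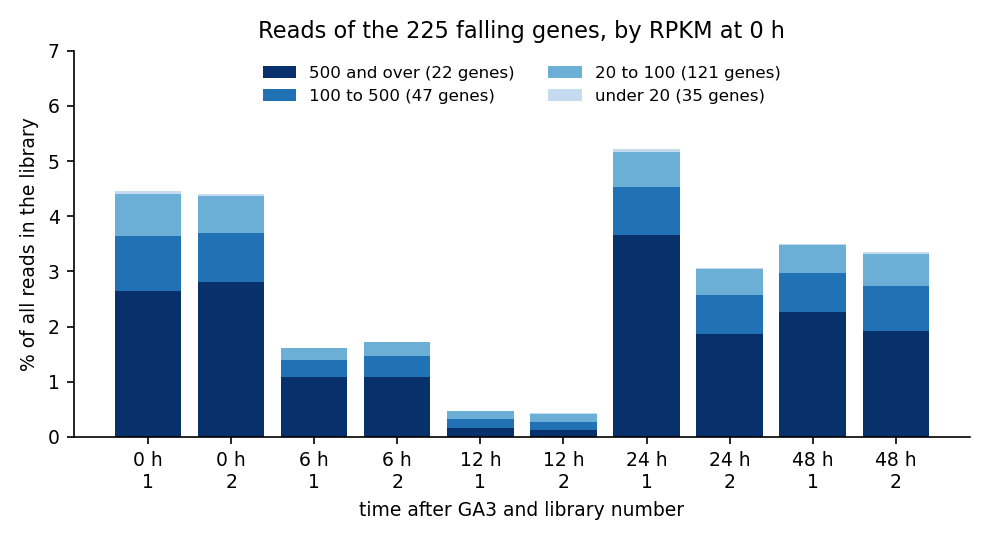
Share of all reads (vertical axis, %) held by the 225 falling genes in each of the 10 libraries (time and library number on the horizontal axis), stacked by RPKM at 0 h. The bars reach 4.46% and 4.41% in the 0 h libraries, 0.466% and 0.426% in those of 12 h, and 3.06% to 5.21% in the libraries of 24 and 48 h.

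The largest single loss was that of JCGZ_04588 (798 coding bases), the second most abundant transcript at 0 h. Its 0 h libraries had 6899 and 9783 RPKM (98702 and 149600 reads), those of 6 h 4340 and 4081, and those of 12 h 128.8 and 136 (2122 and 2076 reads). The later libraries stood at 10812 and 7339 RPKM (24 h) and 7763 and 7323 (48 h). Both libraries of 12 h lay far below all others, and the 6 h libraries lay between them and the rest. The fold in mean RPKM was 62.9, and limma estimated a log2 change of -5.94 ± 0.35 (SE; adjusted p = 0.000536). This gene alone gave up 0.655% of all reads. Its log2 change ran from -6.20 to -5.69 over 27 alternatives run.

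Many of the abundant falling genes shared a narrow range of coding length, a range chosen after their values had been seen. Of the 53 genes at 500 RPKM or more at 0 h with 700 to 900 coding bases, 11 fell (20.8%), against 11 of the 394 with other lengths (2.79%). Their lengths were 738 to 876 bases, and 6 of the 10 largest losses were among them. The lowest, median and highest of the 11 genes were 429, 1057 and 6899 RPKM in 0 h library 1 and 681, 1292 and 9783 in library 2. At 12 h they were 13.2, 77.4 and 249.6 in library 1 and 8.38, 30.0 and 152.5 in library 2. The groups were thus separated even between the highest gene at 12 h and the lowest at 0 h. At 6 h their medians were still 679 and 631 RPKM, and in all 11 genes both 6 h libraries lay above both 12 h libraries, as in 13.9% of all genes tested. The 12 h values in such counts, here and for the sets of genes that follow, are those by which the genes were chosen, so they describe the course and test nothing. Their joint share of all reads was 1.81% and 2.07% in the 0 h libraries, 0.976% and 0.961% in those of 6 h, 0.0818% and 0.0421% in those of 12 h, and 1.33% to 2.72% in the 4 later libraries.

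Nearly silent genes were defined as those at 10 RPKM or more in both 0 h libraries and under 1 in both 12 h libraries. There were 11 (0.0628% of those tested), and all 11 had passed the limma test as falling. The limits and the test use the same 0 h and 12 h values, so these calls add no support. Their summed reads went from 13812 and 9732 in the 0 h libraries to 115 and 62 in the 12 h libraries. Their levels ran from 14.9 to 168 RPKM in 0 h library 1 (median 39.3) and from 11.4 to 162 in library 2 (median 26.1). At 12 h the medians were 0.454 and 0.156 RPKM, with 1 gene without reads in library 1 and 2 in library 2. None of the 11 was at 0 in both 12 h libraries. The count depends on its limits, being 7 with a 12 h limit of 0.5 RPKM, 29 with a limit of 2 and 18 with a 0 h minimum of 5. Leaving out library 2 of 0 h gave 19 genes, leaving out library 1 of 12 h gave 30, and leaving out library 2 of 12 h gave 17.

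JCGZ_23011 (1104 coding bases) was the most abundant of them. Its level was 153.9 and 162 RPKM in the 0 h libraries (3047 and 3431 reads), 48.6 and 80.7 in those of 6 h, and 0.527 and 0.617 in those of 12 h (12 and 13 reads). It was back at 113 and 99.8 RPKM by 24 h, with 125.8 and 143.7 in the libraries of 48 h. The 0 h and 12 h groups were 276.5-fold apart in mean RPKM, with a limma log2 change of -6.66 ± 0.26 (SE, adjusted p = 6.93e-05). The log2 change ran from -8.06 to -4.87 over 27 alternatives run. Unlike the other 10, it kept a high level at 6 h, a description with no test. Some of the others were close to 0 reads at 12 h, too few for a fold. A gene of 1005 coding bases, with 104 and 70.0 RPKM at 0 h, went from 1873 and 1347 reads to 1 and 3. A gene of 339 coding bases went from 417 and 209 reads to 0 and 1. A gene of 939 bases went from 251 and 205 reads to 3 and 0.

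**Figure D4:**
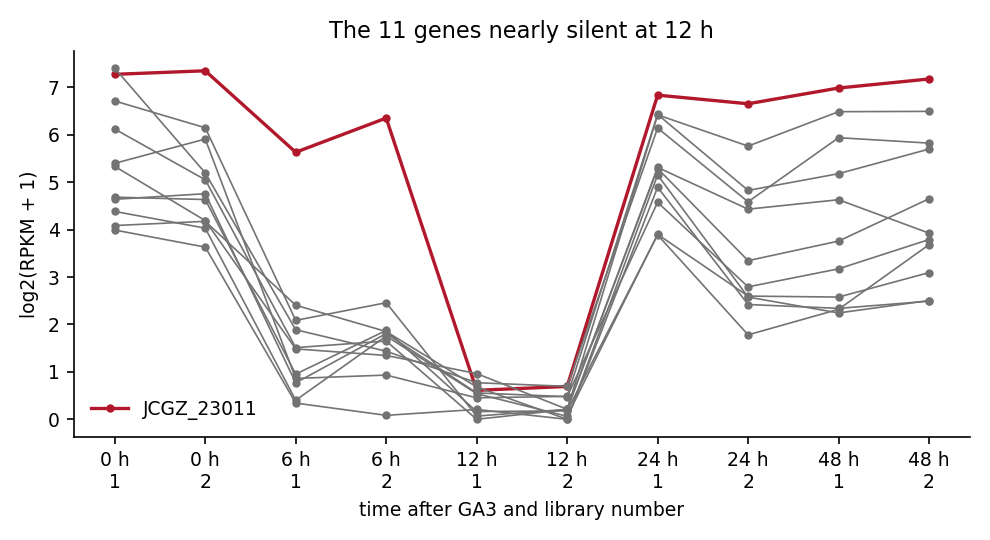
Level (log2(RPKM + 1), vertical axis) of the 11 nearly silent genes in each of the 10 libraries; each line is a gene and JCGZ_23011 is in red. All lie under 1 RPKM in both 12 h libraries, 10 of the 11 are already low at 6 h, and all are higher again at 24 and 48 h.

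The 11 genes had left silence at 24 h. In all 11, both libraries of 24 h and both of 48 h lay above both of 12 h, against 10.1% and 10.3% of all genes tested. Their median was 38.1 and 9.17 RPKM in the libraries of 24 h and 12.5 and 14.2 in those of 48 h, so at 24 h library 1 stood near the 0 h level and library 2 lower. At 6 h the medians were 1.80 and 2.38 RPKM.

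The rising genes were few and mostly low at 0 h. Of the 42, 23 had a mean under 5 RPKM at 0 h, 8 were under 1 in both 0 h libraries, and 1 had no reads there. Those 8 passed the filter on low values only through their 12 h libraries, so the count of low genes depends in part on the filter. A mean of 1 to 5 RPKM at 0 h was found in 14 of the 42, against 3048 of all 17518 genes tested. At 12 h, 7 reached 100 RPKM, 19 lay at 20 to 100 and 16 under 20. As a group they held 0.0710% and 0.0724% of all reads in the 0 h libraries, 0.394% and 0.330% in those of 6 h, 0.308% and 0.272% in those of 12 h, and 0.0736% to 0.101% in the 4 later libraries. In 41 of the 42 both 6 h libraries lay above both 0 h libraries, against 25.6% of all genes tested, a count that reuses the 0 h values by which the 42 were chosen. Both 6 h libraries lay above both of 12 h in 21 and below both in 9, against 13.9% and 11.7% of all genes tested. In all 42, both libraries of 24 h and both of 48 h lay below both of 12 h, against 27.2% and 20.7% of all genes.

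JCGZ_24492 (567 coding bases) reached the highest level among the rising genes. Its libraries of 0 h had 186.8 and 126 RPKM, those of 6 h 1218 and 748, those of 12 h 678 and 546, those of 24 h 97.6 and 88.9, and those of 48 h 144 each. Its highest values were those of 6 h, and its 12 h libraries lay above all of 0, 24 and 48 h. The mean was 3.91-fold higher at 12 h than at 0 h, with a limma log2 change of 1.98 ± 0.31 (SE; adjusted p = 0.0238). Leaving out library 1 or 2 of 0 h gave a limma adjusted p of 0.101 or 0.186, leaving out library 1 or 2 of 12 h gave 0.135 or 0.0834, and the fit to the 4 libraries alone gave 0.0630 (0.00705 to 0.186 over 27 alternatives).

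JCGZ_16734 (1098 coding bases) followed with a different course. Its libraries read 64.1 and 112 RPKM (0 h), 109.9 and 153 (6 h), 354 and 348 (12 h), 140.1 and 159 (24 h), and 155.8 and 126.7 (48 h). Its peak was at 12 h, and the libraries of 6, 24 and 48 h overlapped each other. The mean was 3.99-fold higher at 12 h than at 0 h, with a limma log2 change of 2.04 ± 0.31 (SE; adjusted p = 0.0205). Its log2 change ran from 1.64 to 2.44 over 27 alternatives, and in 4 of these the call was lost. They were the fits without library 1 of 0 h or without library 1 or 2 of 12 h, and the fit to the 4 libraries alone (limma adjusted p = 0.0577).

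A further set of genes was much higher at 12 h without passing the test. Of the 91 genes with a 4-fold gap upwards, 23 were among the 42 that rose and 68 were not called, whereas 135 of the 194 with a gap downwards were called. The 68 genes went from 0.0497% and 0.0539% of all reads in the 0 h libraries to 1.51% and 0.840% in the 12 h libraries, more than the 42 rising genes did at 12 h. Many differed by library number. In 44 of the 91 genes with a gap upwards, library 1 exceeded library 2 by at least 4-fold at each of 6, 24 and 48 h, against 66 (0.377%) of all genes tested. The reverse, library 2 over library 1 by as much, was found in 10 genes (0.0571%). The 6 libraries of these times do not set the 12 h change or the gap, but they do set part of the spread in the limma fit to 10 libraries. A gene split in this way has a large spread there, so that all 44 were among the 68 genes not called is largely set by how that fit is built.

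The medians of those 44 genes were 2.52 and 3.03 RPKM in the libraries of 0 h and 272.8 and 121 in those of 12 h. They were 387 in library 1 and 4.31 in library 2 of 6 h, 143 and 7.14 in those of 24 h, and 265.5 and 7.57 in those of 48 h. Library 2 of 12 h was thus the only treated library of number 2 with a high median, and in 40 of the 44 library 1 of 12 h was still above it. In the fit to the 4 libraries alone, which the split does not enter, 37 of the 80 rising genes showed this pattern. The part that the difference between library numbers has in the rise at 12 h was not tested.

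**Figure D5:**
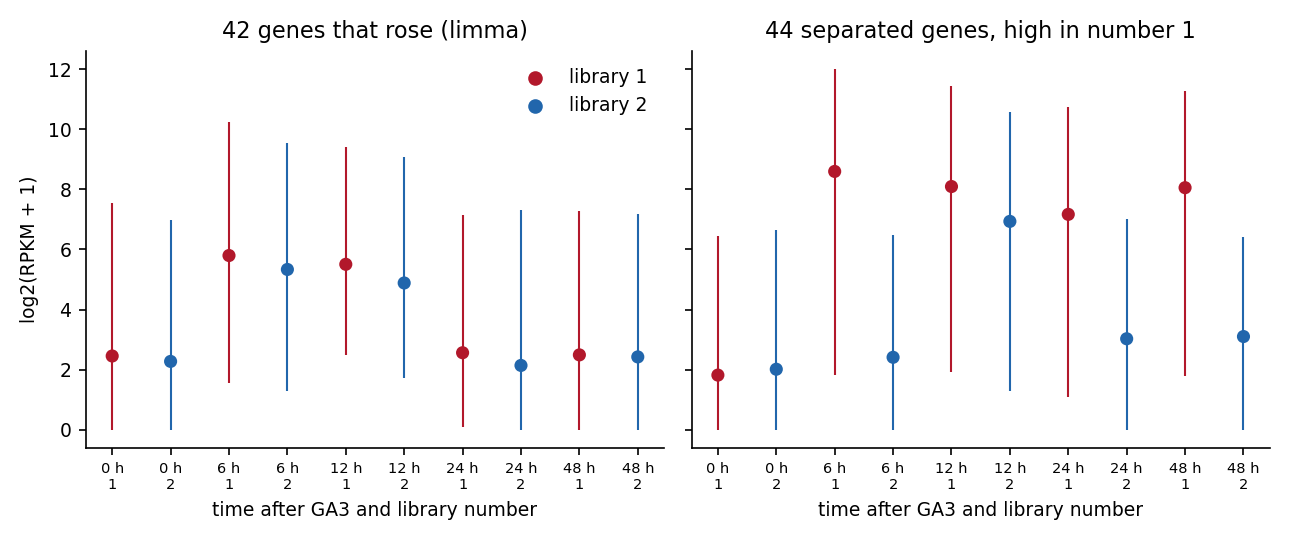
Median (points) and range (lines) of log2(RPKM + 1) in each of the 10 libraries for the 42 genes that rose by the limma test (left) and for the 44 genes with a 4-fold gap upwards at 12 h that were also at least 4-fold higher in library 1 than in library 2 at 6, 24 and 48 h (right); red is library 1 and blue library 2. The medians of the 42 genes are high at 6 and 12 h in both libraries. Those of the 44 are high in library 1 of all treated times and in library 2 of 12 h. Single genes of both sets lie low there.

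A gene nearly silent at 0 h and high at 12 h, the mirror of the silenced genes, was found 8 times (0.0457%). All 8 were among the 44 genes, so the limma fit to 10 libraries, in which 0 of the 8 passed, could hardly call them. In the fit to the 4 libraries alone all 8 were called as rising, and all 11 silenced genes as falling. Both sets were chosen by the values of those 4 libraries, so these calls test nothing further. The 8 passed the filter on low values only through the 12 h libraries, and the 11 only through those of 0 h. The median of the 8 was 131 and 42.2 RPKM in the libraries of 12 h, and 266 and 0.672 in libraries 1 and 2 of 6 h. The most abundant, of 474 coding bases, had 0 and 0.991 RPKM at 0 h, 646 and 407 at 12 h, and 994 and 6.00 in libraries 1 and 2 of 6 h.

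Calls differed between length classes. Falls made up 1.31% to 1.68% of the genes in the 4 shorter length classes and 0.544% in the longest. With a 4-fold gap, 59 genes of the shortest class were lower and 48 higher, against 9 and 11 in the longest. After removal of each library's trend with length, limma called 347 genes that fell and 86 that rose, among them 215 of the 225 and 38 of the 42.

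The genes called at 12 h were also followed in the 6 libraries of 6, 24 and 48 h, as the difference of 6 h from the mean of 24 and 48 h. In this difference 212 of the 225 falling genes lay below 0, against 6369 of all 17518, with medians of -1.24 and 0.11 (log2). Of the 42 rising genes 40 lay above 0, with a median of 2.63. In the limma fit to 10 libraries, 68 of the 225 were lower at 6 h than later (adjusted p under 0.05), against 96 (0.548%) of all genes, and 33 of the 42 were higher, against 147 (0.839%). These counts are not independent of the calls at 12 h, since the 6 libraries helped to set the spread by which the genes were called.

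Calls and difference were therefore also taken from separate libraries, a choice made after seeing the data. Of the 181 genes that fell when only the 4 libraries of the comparison were fitted, 22 were lower at 6 h than later and 0 higher in a fit to the other 6 libraries alone (limma, adjusted p under 0.05), against 34 lower (0.194%) and 74 higher (0.422%) of all genes. Of the 80 that rose, 17 were higher and 0 lower. Without regard to the test, 168 of the 181 lay below 0, with a median of -1.33 (log2), against 6369 of all 17518 genes. Of the 80, 57 lay above 0, with a median of 0.53 against 0.11 for all genes. Most genes tested lay above 0 too, so the sign count of the 80 says little. Same-numbered libraries of these 3 times deviated together, and with the library number as a replicate block 84 of the 181 were lower and 0 higher, against 2.15% and 2.81% of all genes. With that block 21 of the 80 were higher and 1 lower.

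For the 225 and 42 genes, the replicate block in the 6 libraries gave 122 lower, 1 higher, and 35 of the 42 higher, and the same fit without the block gave 24 lower and 28 higher. In the fit to 10 libraries, the 68 became 12 or 14 when library 1 or 2 of 6 h was left out, 42 with library 1 of 24 h left out, and 35 or 28 with library 1 or 2 of 48 h left out. The 33 became 21 with library 1 of 6 h left out.

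All 11 abundant genes of 738 to 876 bases lay below 0 in this difference, against 6369 of all 17518 genes. In the fit to 10 libraries 0 of the 11 passed. For JCGZ_04588 the difference was -0.96 (log2, limma adjusted p = 0.213), and for JCGZ_23011 it was -0.92 (limma adjusted p = 0.114). Among the rising genes, JCGZ_24492 was higher at 6 h than later by 3.03 (log2; limma adjusted p = 0.00178), while JCGZ_16734 stood at -0.16 (limma adjusted p = 0.926). Over all 225 falling genes, both 6 h libraries lay above both 12 h libraries in 159 and below both in 10, against 13.9% and 11.7% of all genes tested. Both libraries of 24 h lay above both of 12 h in 223 of the 225, and both of 48 h in 222, against 10.1% and 10.3% of all genes.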

How the data were processed

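Each library has 1 table with a value per gene ID; per the file headers, it holds only the ID and the library title. The deposited values were read as RPKM computed by the authors, from how they step between libraries. The submitters' processing notes name Bowtie 0.12.2 and mm8, a mouse genome, without a role; for counter and annotation the sources used here give nothing. Whole reads were recovered from the ratios of each gene's values (100.0% of 203696 values above 0 within 0.01 of a whole number), and gene lengths from them (99.99% whole within 0.02 bases); since 99.9% of the locus tag lengths were multiples of 3, they are called coding lengths. Log2(RPKM + 1) was fitted with limma 3.58.1 in R 4.3.3 (trend and robust moderation), with time as a factor over all 10 libraries, on the genes whose mean in the 4 libraries reached 1 RPKM. Tests were two-sided, with a threshold of 0.05 on Benjamini-Hochberg adjusted p-values. A gap means that the nearest libraries of the 2 groups differ by at least 4-fold. Same-numbered libraries deviated together among 6, 24 and 48 h (correlations of 0.536 to 0.698), so a replicate block is given for these times. They did not between 0 h and 12 h (-0.308), where a block was run only as an alternative. Scripts were checked on simulated data. The 2 IDs that fell are the highest at 0 h among those 16-fold or more lower, and among those under 1 RPKM in both 12 h libraries. The 2 that rose are the highest at 12 h. The gene lists planned by product name could not be read without names. Members, classes and rules were chosen with earlier results of these data known.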

Additional observations from a re-analysis of the deposited data

How the results depend on the processing

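Calls at 12 h kept their downward majority in all 27 alternatives, at 225 falling and 42 rising genes in the reported fit. Leaving out 1 library gave 35 to 302 called genes, 32 to 266 falling and 3 to 36 rising; for the difference of 6 h from the later times it gave 12 to 69 lower and 21 to 31 higher genes, and for the nearly silent genes 15 to 30. Deviations of same-numbered libraries correlated at 0.536 to 0.698 among the treated times and at -0.315 to -0.135 between these and 0 h (-0.308 for 12 h), so the numbers tied the treated libraries but were not taken to pair 0 h with 12 h. With a replicate block, 526 genes were called (409 fell, 117 rose), 664 in the 4 libraries alone (433 and 231), and 732 with the block and the coding length correction (532 and 200). With crossed numbers, chosen after seeing the data, the counts were 1012 (646 and 366) over all libraries and 582 (389 and 193) in 4. The coding length correction gave 433 (347 and 86), and 477 (355 and 122) in 4 libraries, the latter also chosen after seeing the data. The fit to 4 libraries raised the rising genes to 80, of which 23 were among the 42. For the difference of 6 h from later times, the fit to 6 libraries gave 24 lower genes and the replicate block 122; with genes called in the 4 libraries alone, chosen after seeing the data, there were 22 lower and 17 higher, and 84 and 21 with the block. Nearly silent genes numbered 7, 29 and 18 with a 12 h limit of 0.5 or 2 RPKM and a 0 h minimum of 5. Classes by the 0 h level gave shares that fell of 4.92% at 500 RPKM and over and 0.0984% at 1 to 5. The cause of these shifts was not tested. Voom on the recovered reads, other pseudocounts, filters and scalings left the count of calls within 1.5 times. Depth limits genes with a few reads at 0 h or at 12 h.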

Other observations

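Some falling genes had locus tags with consecutive numbers. Of the 342 tested genes whose tag number was 1 above or below that of a falling gene, 12 fell as well (3.51%, in 6 pairs), against 1.28% of all genes tested. For the rising genes it was 2 of 66 (3.03%, 1 pair), against 0.24%. The tables give no positions, so whether such tags lie next to each other was not tested. Of the 941 IDs tested that are not locus tags, 7 fell and 1 rose. Of all 17518 genes tested, 225 (1.28%) fell and 42 (0.240%) rose.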
